A study of Mus musculus with 14 samples.

Results

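The genes described here make or sense lysophosphatidate (LPA) and sphingosine phosphate (S1P) in the newborn mouse brain. They were chosen by gene symbol from the deposited count table, and all 10 listed genes were among its 17927 genes: autotaxin (Enpp2), the sphingosine kinases Sphk1 and Sphk2, the LPA receptors Lpar1, Lpar2, Lpar4 and Lpar6, and the S1P receptors S1pr1, S1pr2 and S1pr3. None was lost to a filter on low counts, and the smallest count of any of them in any library was 180, for Lpar6.

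RNA-SEQ was carried out on 14 untreated brains taken at postnatal day 2 (P2), 7 WT and 7 Capn15 KO, from 6 litters. The mouse lines of the study were made in C57BL/6J mice, and its methods name a Capn15(lacZ-Neo) line and a floxed Capn15 line without saying which of them gave these KO brains. Each library is a separate brain, and the labels place all of them in a single batch. The study's methods put 4 samples on each sequencing lane. Libraries with the same replicate number shared a litter. Litter B gave replicates 2 and 3 of both genotypes, so that pairs 2 and 3 are matched only by library number. There were 2 female and 5 male WT brains and 4 female and 3 male Capn15 KO brains, so that 6 pairs were of opposite sex and 1 (replicate 7, litter F) was male in both genotypes. Libraries held 39937477 to 57422382 counts in WT and 37620954 to 70910163 in Capn15 KO brains.

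LPA and S1P are small lipids that act outside cells through families of G protein-coupled receptors. Autotaxin is a secreted enzyme that cuts choline from lysophosphatidylcholine and so releases LPA, and in the brain it is made mainly by the choroid plexus, the leptomeninges and cells of the oligodendrocyte lineage. Sphingosine kinases add a phosphate to sphingosine inside cells, and the S1P that is exported then acts on receptors of vessels, glia and neurons. In the developing brain LPA is known for its actions on cortical progenitors and on the shape of growing axons, and S1P for its part in vessel maturation.

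To compare levels between genes, counts were scaled to CPM (counts per 1000000 counts of the library) with TMM factors and divided by the length of all annotated exons in kb. On this scale of level Enpp2 was first in WT brains, at 20.9 ± 2.24 CPM per kb (SD, n = 7), followed by S1pr1 at 17.2 ± 2.17 CPM per kb (SD, n = 7). The WT ranges of these neighbours overlapped, although Enpp2 was above S1pr1 in 13 of the 14 libraries. Next came Lpar1 at 5.92 ± 0.611 and Sphk2 at 4.81 ± 0.254 CPM per kb (SD, n = 7 each), whose ranges also overlapped, while every library had S1pr1 above Lpar1. S1pr3 at 2.68 ± 0.219 and Lpar4 at 1.82 ± 0.0864 CPM per kb (SD, n = 7 each) each had a WT range apart from those of both neighbours. The last 4 genes overlapped each with the next in WT: Lpar2 at 1.34, Sphk1 at 1.30, Lpar6 at 1.10 and S1pr2 at 1.001 CPM per kb. Of the summed level per kb of the LPA receptors described here, Lpar1 made up 58.0% ± 2.79 in WT libraries and 58.8% ± 2.06 in Capn15 KO libraries (SD, n = 7 each). S1pr1 held 82.2% ± 1.97 of the S1P receptor sum in WT libraries and 81.5% ± 1.79 in Capn15 KO libraries (SD, n = 7 each).

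**Figure D1:**
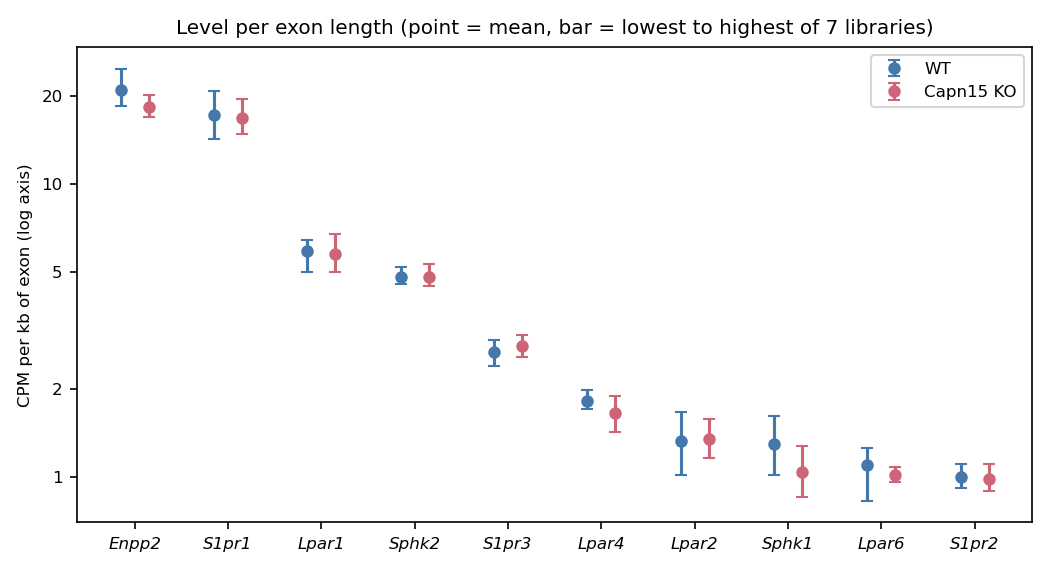
Level of the 10 genes in CPM per kb of exon on a log axis, for 7 WT and 7 Capn15 KO libraries, ordered by the WT mean; points are means and bars run from the lowest to the highest library. Enpp2 (20.9 CPM per kb in WT) and S1pr1 (17.2) stood above the other genes, which lay at 5.92 or below.

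The targeted gene checks the labels. Capn15 averaged 25.4 ± 3.07 CPM in WT against 14.5 ± 2.67 CPM in Capn15 KO libraries (SD, n = 7 each), but in litter F the levels were 18.7 CPM in the library labelled WT and 20.2 CPM in the one labelled Capn15 KO (replicate 7 of each). Results that rest on that pair are therefore given with and without it. The labels name neurons as the cell type and brain as the tissue. Summed markers of neurons were at 8439 to 8912 CPM in WT, but those of choroid plexus (786 to 1031 CPM), endothelium (264 to 340 CPM), microglia (160.0 to 199 CPM) and radial glia and astrocytes (1850 to 2359 CPM) were also present, so that the libraries hold RNA of the whole brain and not of neurons alone.

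The genotype comparison asked which of these genes differed in abundance between WT and Capn15 KO brains. The test was edgeR's quasi-likelihood test with litter and sex as covariates, run on all 17927 genes, over which p-values were adjusted to give an FDR. At an FDR under 0.05 this test called 0 of the 10 genes, and 1 gene in all (0.00558% of those tested). The targeted gene, Capn15, was not called either: its FDR in this test was 0.0747, and 1.58e-06 without litter F. At an unadjusted p under 0.05, 3 of the 10 were lower in Capn15 KO brains, against 2.26% of all genes, and 0 were higher, against 2.88% (5.14% in either direction). With a block for the replicate number, which replaced litter, 3 were lower, against 1.99%, and without litter F 2 were lower, against 1.92%. Those 3 were Enpp2, Sphk1 and Lpar4. Enpp2 and Sphk1 are also in the study's own list of differing genes, which was drawn from the same brains, so that their place among the 3 is not independent evidence. Both decreases are larger in that list than here, although the study's model also held sex and litter. The same is true of Capn15, Ptgds and Ttr, whose log2 fold changes here were -0.81, -0.38 and -0.32. For Capn15 the value without litter F, -0.98, is also smaller in size than the study's. The cause of these gaps was not tested. The study's immunoblots of P2 brains, with heterozygous controls, gave no significant change in Enpp2 protein. edgeR's likelihood ratio test called 2 of the 10 (Enpp2 and Sphk1) at an FDR under 0.05, both lower, against 0.145% of genes, and DESeq2 called 1 (Enpp2), against 0.0569%. The difference in log2 level had a median of -0.04 over the 10 genes and 0.0015 over all genes. For every one of the 10 the WT and Capn15 KO ranges overlapped, and over all genes 0.00558% had every Capn15 KO library below every WT library.

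**Figure D2:**
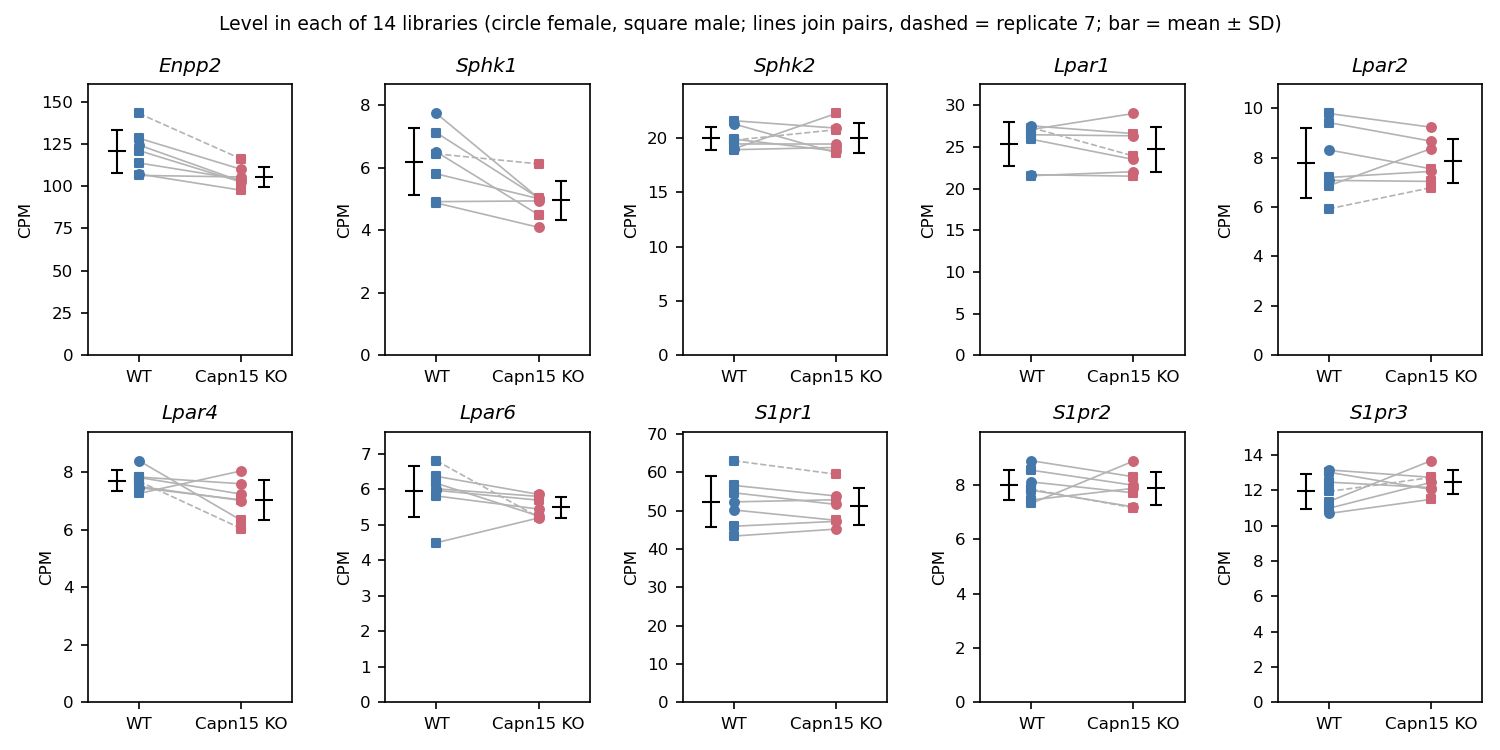
CPM in each library for the 10 genes, WT on the left and Capn15 KO on the right of each panel, with lines joining libraries of the same replicate number (dashed for replicate 7), circles for females, squares for males, and the mean ± SD beside the points. Enpp2 went down along 7 of 7 lines and Sphk1 along 6 of 7, while Sphk2 went down along 4.

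Enpp2 (ENSMUSG00000022425, chromosome 15, 54838901 to 54952892 on the minus strand of GRCm38, 25 exons in its longest transcript) is the LPA-making enzyme. In WT replicates 1 to 7 it was at 128, 106, 114, 124, 107, 121 and 143 CPM. In Capn15 KO replicates 1 to 7 it was at 110.0, 105, 104, 103, 97.6, 102 and 116 CPM. The Capn15 KO libraries were thus spread over a narrower range (5.97 CPM SD against 12.9 in WT), and the highest of them lay below 4 of the 7 WT libraries. The means were 121 and 105 CPM. Its modelled log2 fold change, with litter and sex as covariates, was -0.20 (standard error 0.0346, 95% interval -0.27 to -0.12), or -12.8% in level. Its FDR was 0.166 in edgeR's quasi-likelihood test, from an unadjusted p of 5.56e-05. Enpp2 was lower in Capn15 KO in 7 of 7 pairs, as were 0.597% of all genes, and the smallest of these differences was -0.01 on the log2 scale, in pair 2. The two-sided exact permutation test gave p = 0.0122, and 0.92% of all genes were lower with a p under 0.05 in that test. The exact sign-flip test on the 7 pairs gave p = 0.0156, which is the smallest it can give. Pair 7, whose labels are in doubt, held the largest difference (-0.30). Over the other 6 pairs Enpp2 was lower in 6 of 6, against 1.03% of all genes, and the exact sign-flip test gave p = 0.0313, again the smallest possible. Over other tests, normalizations, covariates and without single libraries the FDR of Enpp2 lay between 0.000396 (DESeq2) and 1.0 (genotype alone in the model). Without litter F the log2 fold change was -0.18 (unadjusted p = 0.000228, FDR = 0.272 in the quasi-likelihood test). On the other strand 345 bases of its exons overlap Gm26684, and the strand setting of the counting is not given in the sources used here.

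Markers of the 3 kinds of cell named above as makers of autotaxin were read beside Enpp2, and those of the choroid plexus differed most often. The marker lists were chosen with earlier results of these data known. Of 15 choroid plexus markers, 11 were lower and 1 higher in Capn15 KO at an unadjusted p under 0.05, against 2.26% and 2.88% of all genes. Their median log2 fold change was -0.25. Ttr, the transthyretin gene and most abundant of them, differed by -0.32, Aqp1, a water channel, by -0.25 and Clic6, a chloride channel protein, by -0.27 on the log2 scale. Ttr is also in the study's own list. The 1 higher marker, Prlr (named after its value was seen), differed by 0.20. The summed level of the list lay between 786 and 1031 CPM in WT and between 644 and 895 CPM in Capn15 KO libraries, and no marker was at 0 in all libraries. This sum is mostly Ttr, which averaged 846 CPM of a mean sum of 947 CPM in WT. In Capn15 KO libraries Ttr averaged 680 CPM of a mean sum of 768 CPM. Without litter F 9 of the 15 were lower, against 1.92% of all genes, and without WT replicate 5 or Capn15 KO replicate 5 the count was 6. In pairs 1 to 7 the log2 difference, averaged over the 15 choroid plexus markers with equal weight, was -0.08, -0.18, -0.19, -0.09, -0.25, -0.24 and -0.30. For Enpp2 it was -0.22, -0.01, -0.13, -0.27, -0.13, -0.24 and -0.30. Both were negative in all 7 pairs, but pair 2 had the smallest difference for Enpp2 and not for the markers. The largest for both was in pair 7, where the direction rests on the labels in doubt.

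Of 9 leptomeningeal markers 4 were lower at an unadjusted p under 0.05, against 2.26% of all genes, and 0 were higher. The 4 were Lum, Slc6a13, Slc13a4 and Slc22a6, named after their values were seen. Without litter F 4 were lower, against 1.92% of all genes. The sum of the 9 markers lay between 276 and 401 CPM in WT and between 306 and 373 CPM in Capn15 KO libraries. The most abundant of them, Col1a2, Col1a1 and Dcn, differed by -0.07, 0.14 and 4.9e-05 on the log2 scale. Of 12 markers of the oligodendrocyte lineage 1 was lower, again against 2.26% of all genes (Mag, -0.22, named after its value was seen). Pdgfra, Mbp and Olig1, the most abundant, differed by -0.07, -0.11 and -0.03. Without litter F 3 of the 12 were lower, against 1.92% of all genes. The median was -0.06, and the sum lay between 389 and 717 CPM in WT and between 422 and 719 CPM in Capn15 KO libraries. No leptomeningeal or oligodendrocyte marker was at 0 in all libraries. The part of these cells in the difference of Enpp2 was not tested. In RNA of a whole brain, fewer cells of a type and less RNA per cell cannot be told apart.

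**Figure D3:**
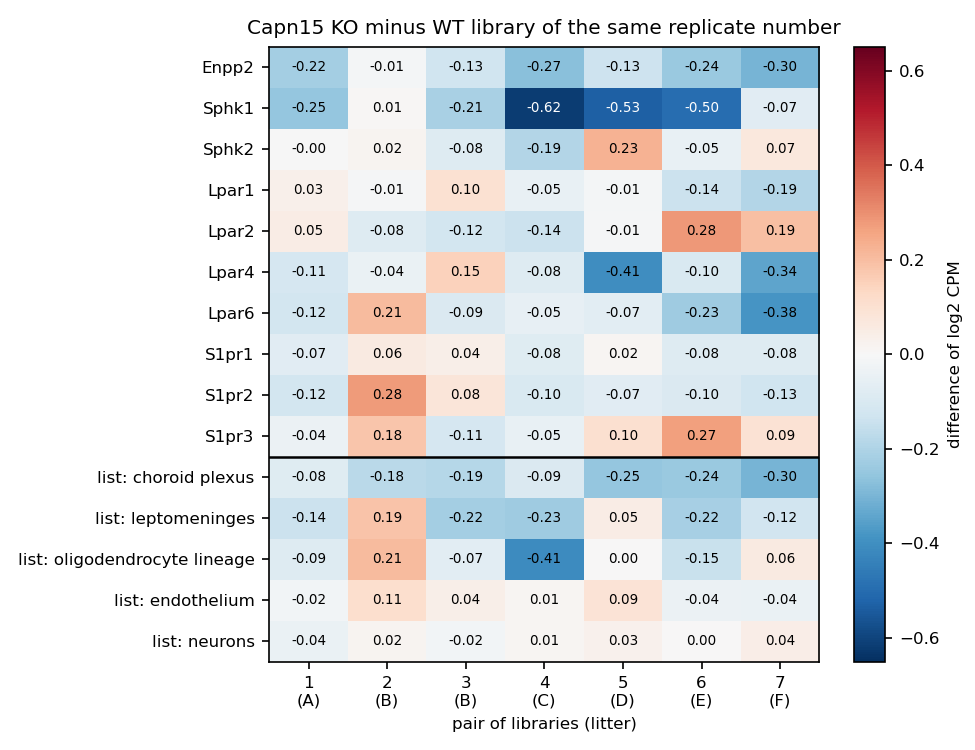
Difference of log2 CPM, Capn15 KO minus WT, in each of the 7 pairs of libraries (columns, litter in brackets). Rows are the 10 genes and 5 marker lists, for which the differences of the single markers were averaged. Blue is lower and red higher in Capn15 KO. Enpp2 and the choroid plexus list were negative in all 7 pairs, and Sphk1 reached -0.62 in pair 4.

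Sphk1 and Sphk2 encode the sphingosine kinases that make S1P, and the comparison gave different values for them. Sphk1, found largely in the cytoplasm, lies on chromosome 11 (116530925 to 116536674, plus strand). Sphk2, found also in the nucleus and at mitochondria, lies on chromosome 7 (45709467 to 45718002, minus strand). To show where transcription of each can begin, the most upstream of their RefSeq windows (GRCm38.p6, from 250 bases before to 50 bases after an annotated start) are printed here 5′ to 3′, with capitals for TATAAA, the TATA box motif, and for GGGCGG, the GC box motif, each looked for on both strands.
Sphk1, chr11:116530850-116531149, plus strand: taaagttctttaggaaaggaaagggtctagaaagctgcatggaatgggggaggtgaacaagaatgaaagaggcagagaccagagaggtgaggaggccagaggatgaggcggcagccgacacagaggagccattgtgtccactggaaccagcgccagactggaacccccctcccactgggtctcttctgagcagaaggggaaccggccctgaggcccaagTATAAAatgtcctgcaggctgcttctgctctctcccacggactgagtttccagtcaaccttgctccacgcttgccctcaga
Sphk2, chr7:45717953-45718252, minus strand: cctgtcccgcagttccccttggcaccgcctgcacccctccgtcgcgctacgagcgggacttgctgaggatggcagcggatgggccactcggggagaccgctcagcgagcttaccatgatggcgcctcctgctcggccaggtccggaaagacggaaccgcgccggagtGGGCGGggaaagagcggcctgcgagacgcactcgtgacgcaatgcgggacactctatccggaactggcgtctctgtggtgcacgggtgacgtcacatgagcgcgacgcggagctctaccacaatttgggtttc
The Sphk1 window holds TATAAA with its first base at position -31 from the start, no GGGCGG and 6 CpG dinucleotides, at 56.0% G and C. The Sphk2 window holds no TATAAA, 1 GGGCGG and 33 CpG dinucleotides, at 66.0% G and C, and 92.3% of 32851 mouse windows have as many CpG or fewer. Over those windows 13.6% hold TATAAA and 35.7% hold GGGCGG. RefSeq lists 5 windows for Sphk1 and 2 for Sphk2, and the counts per gene do not show which start was used. The Sphk1 windows not printed hold no TATAAA, no GGGCGG and 14 to 21 CpG dinucleotides. The Sphk2 window not printed holds no TATAAA, 3 GGGCGG and 27 CpG dinucleotides. A match of letters is a description and not a binding site.

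Sphk1 (ENSMUSG00000061878) was at 4.87, 4.92, 5.81, 7.74, 6.51, 7.12 and 6.45 CPM in WT replicates 1 to 7. In Capn15 KO replicates 1 to 7 it was at 4.09, 4.94, 5.01, 5.03, 4.49, 5.03 and 6.12 CPM. WT replicates 4 to 7 lay above every Capn15 KO library, and WT replicates 1 to 3 lay inside the Capn15 KO range. The means were 6.20 ± 1.08 and 4.96 ± 0.624 CPM (SD, n = 7 each). The log2 fold change was -0.36 (standard error 0.0757, 95% interval -0.52 to -0.20), or -22.1% in level, with an unadjusted p of 0.000308 and an FDR of 0.276 in the quasi-likelihood test. The exact permutation test gave p = 0.0227 and the exact sign-flip test on pairs p = 0.0313. The difference was not even over the pairs. It was -0.62, -0.53 and -0.50 on the log2 scale in pairs 4, 5 and 6. In pairs 1 and 3 it was -0.25 and -0.21, and in pairs 7 and 2 it was -0.07 and 0.01. Differences within pairs are not adjusted for sex. Pairs 4 and 5 set a male Capn15 KO brain against a female WT brain, and pairs 1, 2, 3 and 6 the reverse. Without litter F, whose labels are in doubt, the log2 fold change was -0.42 (unadjusted p = 9.76e-05, FDR = 0.175 in the quasi-likelihood test). Over the 6 pairs without litter F Sphk1 was lower in 5, and the exact sign-flip test gave p = 0.0625. Over the alternatives its FDR lay between 0.00926 (likelihood ratio test) and 1.0 (genotype alone), with 0.156 in DESeq2. At this depth the Wilson interval of a single library can be wider than the gap between the Sphk1 group means, for example 6.93 to 8.64 CPM around the 7.74 CPM of WT replicate 4. Such intervals cover counting error only, and are of 1 library where each group mean is over 7. On the other strand 192 bases of its exons overlap Gm29292.

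Sphk2 (ENSMUSG00000057342) averaged 20.01 ± 1.06 CPM in WT against 20.01 ± 1.34 CPM in Capn15 KO libraries (SD, n = 7 each). It was lower in 4 of 7 pairs and higher in 3. The log2 fold change was 0.0080 with a 95% interval of -0.09 to 0.11 (unadjusted p = 0.866 in the quasi-likelihood test), and it was -0.0034 without litter F. Without WT replicate 4 it was 0.09, with an unadjusted p of 0.0402 in the same test. Of the summed level per kb of both kinases, Sphk1 held 21.1% ± 2.33 in WT libraries, from 17.9% to 24.0%, and 17.8% ± 1.98 in Capn15 KO libraries, from 14.9% to 20.4% (SD, n = 7 each). These ranges overlapped, and the difference between the changes of Sphk1 and Sphk2 was not tested. Exons of Sphk2 overlap Dbp over 539 bases and Rpl18 over 373 bases on the other strand, which makes its count uncertain unless strand was used in counting.

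Lpar1 (ENSMUSG00000038668, chromosome 4, 58435255 to 58553898), a receptor first described in the ventricular zone of the embryonic cortex, averaged 25.4 ± 2.62 CPM in WT against 24.7 ± 2.72 CPM in Capn15 KO libraries (SD, n = 7 each). The lowest, median and highest libraries were at 21.6, 26.5 and 27.5 CPM in WT and at 21.5, 23.9 and 29.0 CPM in Capn15 KO. The ranges almost coincided, and the log2 fold change was -0.05 with a 95% interval of -0.14 to 0.04 (unadjusted p = 0.283 in the quasi-likelihood test), and without litter F it was -0.02. Lpar2 (ENSMUSG00000031861, chromosome 8, 69822429 to 69831102), its close relative, averaged 7.79 ± 1.42 CPM in WT against 7.86 ± 0.903 CPM in Capn15 KO libraries (SD, n = 7 each), with a log2 fold change of 0.01 and an interval of -0.12 to 0.15. Without litter F that value was -0.02, so no direction can be given for Lpar2.

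Lpar4 and Lpar6 belong to the LPA receptors that are related in sequence to the P2Y nucleotide receptors. Lpar4 (ENSMUSG00000049929, chromosome X, 106920625 to 106933900) was at 7.82, 7.84, 7.26, 7.47, 8.40, 7.51 and 7.69 CPM in WT replicates 1 to 7. In Capn15 KO replicates 1 to 7 it was at 7.24, 7.60, 8.05, 7.04, 6.33, 7.02 and 6.05 CPM. Capn15 KO replicates 5 and 7 were the lowest of all libraries, and 5 of the 7 Capn15 KO libraries lay below every WT library, while Capn15 KO replicate 3 was above its WT partner. The log2 fold change was -0.17 (standard error 0.0605, 95% interval -0.30 to -0.04), with an unadjusted p of 0.0137 and an FDR of 0.784 in the quasi-likelihood test. The exact permutation test gave p = 0.0414, and the exact sign-flip test on pairs, which is the paired form, gave p = 0.125. The difference kept its sign with any single library left out (-0.25 to -0.12), but the call did not hold throughout: without WT replicate 5 or Capn15 KO replicate 5 the log2 fold change was -0.12 with an unadjusted p of 0.119 in the quasi-likelihood test, and without Capn15 KO replicate 7 or without litter F it was -0.14 with an unadjusted p of 0.051. Within the same genotype, Lpar4 was at 7.48 CPM in 4 female and at 6.47 CPM in 3 male Capn15 KO brains, and at 7.93 CPM in 2 female and at 7.62 CPM in 5 male WT brains. The sex term for Lpar4 was -0.12 on the log2 scale, male minus female (unadjusted p = 0.0858 in the quasi-likelihood test).

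Lpar6 (ENSMUSG00000033446, chromosome 14, 73237895 to 73243294, 1 exon) averaged 5.94 ± 0.716 CPM in WT against 5.49 ± 0.287 CPM in Capn15 KO libraries (SD, n = 7 each). WT replicate 2, at 4.49 CPM, was the lowest of all libraries and lay apart from the other WT libraries, which began at 5.81 CPM. Lpar6 was lower in 6 of 7 pairs, with pair 2 the exception. Its log2 fold change was -0.12 with a 95% interval of -0.28 to 0.04 (unadjusted p = 0.141 in the quasi-likelihood test), and without WT replicate 2 it was -0.16 (unadjusted p = 0.0221 in the same test). Its largest difference was in pair 7, at -0.38, and without litter F the log2 fold change was -0.07 (unadjusted p = 0.399 in the same test). In all, 4 of the 10 genes (Enpp2, Sphk1, Lpar4 and Lpar6) were lower in 6 or 7 of the 7 pairs, against 5.52% of all genes. Pairs 2 and 3 are both of litter B and are matched only by library number. Matched the other way, Lpar4 is higher in Capn15 KO in both, at 8.05 against 7.84 and 7.60 against 7.26 CPM. Lpar4 would then leave this count. Exons of Lpar6 overlap those of Rb1, on the other strand, over 408 bases.

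S1pr1 (ENSMUSG00000045092, chromosome 3, 115710433 to 115715072), the S1P receptor best known from endothelium, averaged 52.3 ± 6.62 CPM in WT against 51.1 ± 4.91 CPM in Capn15 KO libraries (SD, n = 7 each). The lowest, median and highest libraries were at 43.4, 52.3 and 63.0 CPM in WT and at 45.2, 51.6 and 59.5 CPM in Capn15 KO, so the Capn15 KO range lay within the WT range. Its log2 fold change had the narrowest interval of the 10 genes, -0.10 to 0.03 around -0.03 (unadjusted p = 0.304 in the quasi-likelihood test). Without litter F the log2 fold change of S1pr1 was -0.02. S1pr2 (ENSMUSG00000043895, chromosome 9, 20962361 to 20976781) was at 7.98 ± 0.565 and 7.86 ± 0.606 CPM (SD, n = 7 each), with a log2 fold change of -0.04 and an interval of -0.17 to 0.09, and -0.03 without litter F. S1pr3 (ENSMUSG00000067586, chromosome 13, 51408639 to 51422797), which couples to several G proteins, was at 11.9 ± 0.978 and 12.5 ± 0.685 CPM (SD, n = 7 each), with a log2 fold change of 0.06 and an interval of -0.06 to 0.18. Without litter F the log2 fold change of S1pr3 was 0.05. Of 11 endothelial markers 0 were lower and 1 was higher at an unadjusted p under 0.05, against 2.26% and 2.88% of all genes (2 were higher without litter F). The most abundant, Kdr, Cldn5 and Cdh5, differed by 0.02, 0.10 and 0.03, of which Cldn5 is the 1 that passed, and the sum of the list lay between 264 and 340 CPM in WT and between 273 and 333 CPM in Capn15 KO libraries. Of 11 markers of mural cells, the pericytes and smooth muscle of vessels, 3 were lower, against 2.26% of all genes. The 3 were Acta2, Myh11 and Tagln, named after their values were seen. At the same p 0 were higher, and without litter F 2 were lower, against 1.92% of all genes. No endothelial or mural marker had an FDR under 0.05. Over the 11, 6 differences were negative, with a median of -0.03, and the most abundant, Rgs5, Vtn and Pdgfrb, differed by -0.05, -0.07 and 0.0071. Their sums were 300 to 382 CPM in WT and 284 to 364 CPM in Capn15 KO libraries.

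**Figure D4:**
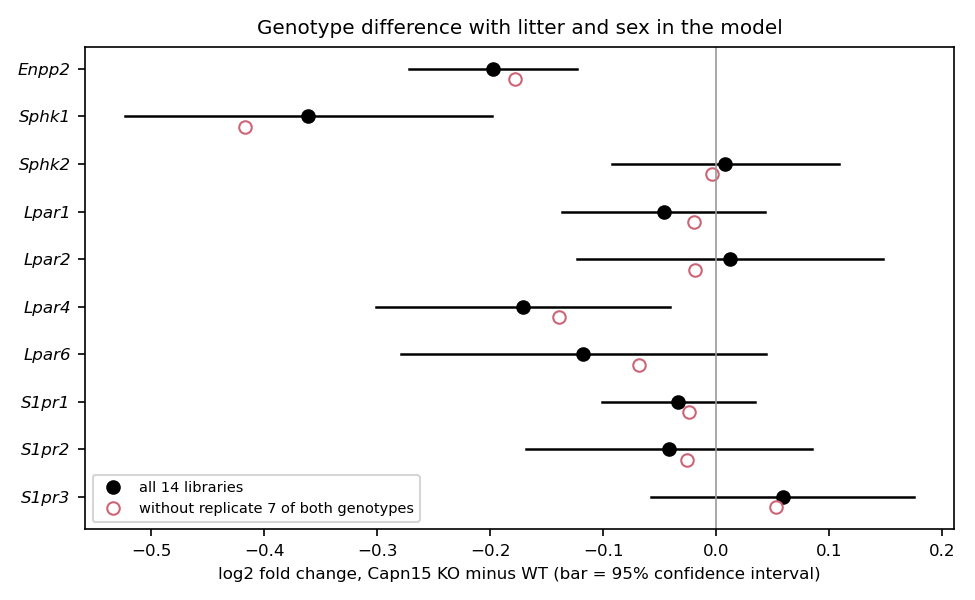
Log2 fold change, Capn15 KO minus WT, of the 10 genes with litter and sex in the model (filled points, bars are 95% confidence intervals) and without replicate 7 of both genotypes (open points). The intervals of Enpp2, Sphk1 and Lpar4 lay below 0, and those of the other 7 genes included 0.

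Several of these genes differed between litters. At an unadjusted p under 0.05 for litter in the quasi-likelihood test, 5 of the 10 were called, a share near the 41% of all genes, and the same 5 had an FDR under 0.05, against 29.6% of all genes. They were Enpp2, Sphk1, Lpar1, Lpar2 and S1pr1. S1pr1 ran from a mean of 45.4 CPM in the 4 libraries of litter B to 61.2 CPM in the 2 of litter F. Enpp2 was highest in litter F at 130 CPM and lowest in litter D at 102 CPM. Lpar1 was at 27.2 CPM in litter B and at 21.6 CPM in litter D. Lpar2 was highest in litter B, at 9.27 CPM, and lowest in litter F, at 6.35 CPM, the reverse of the order of these litters for S1pr1. Sphk1 was at 4.48 CPM in litter A and at 6.38 CPM in litter C.

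For sex, 0 of the 10 genes passed an unadjusted p of 0.05, against 5.04% of all genes, and 0.0669% of all genes had an FDR under 0.05. The sex term of these genes, male minus female, lay between -0.14 (Sphk1, unadjusted p = 0.100) and 0.03 (Sphk2) on the log2 scale. The term for a genotype difference that depends on sex called 0 of the 10, against 6.85% of all genes. That term cannot be estimated without litter F, since replicate 7 is the only pair of 1 sex, so it rests on the pair whose Capn15 level goes against the labels.

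Around these genes, 61 others of the same pathways were looked up, of which 55 were in the count table (Lpar5, S1pr4, Apom, Degs2, Acer1 and Enpp7 were not analysed here). Of the 55, 2 were lower and 0 higher in Capn15 KO at an unadjusted p under 0.05, where 2.26% and 2.88% of all genes were, and 0 had an FDR under 0.05. Their median log2 fold change was 0.0069. Of 6 genes of S1P breakdown, export and carriage, 1 was lower: Sgpp2, a phosphatase of S1P, was at 3.09 ± 0.547 and 2.69 ± 0.596 CPM in WT and Capn15 KO (SD, n = 7 each), a log2 fold change of -0.22 (unadjusted p = 0.0397, and 0.0855 without litter F, in the quasi-likelihood test). Of 21 genes of sphingosine and ceramide supply, 1 was lower: Asah2, a neutral ceramidase that releases sphingosine, was at 7.99 ± 0.352 and 7.36 ± 0.789 CPM (SD, n = 7 each), a log2 fold change of -0.15 (unadjusted p = 0.0202 in the same test, and 0.0299 without litter F) and lower in 6 of 7 pairs. Without litter F 2 of the 21 were lower, the other being Asah1, a lysosomal ceramidase named after its value was seen (-0.08, unadjusted p = 0.0312). Among 8 genes of LPA making and breakdown other than autotaxin and 5 other members of the ENPP family, 0 passed in either direction. Of the other lysolipid receptors, Lpar3 and S1pr5 were in the table and neither passed. Lpar3, named after its value was seen, had only 10 to 32 counts per library, and without litter F it was higher by 0.52 on the log2 scale with an unadjusted p of 0.0441 in the quasi-likelihood test.

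**Figure D5:**
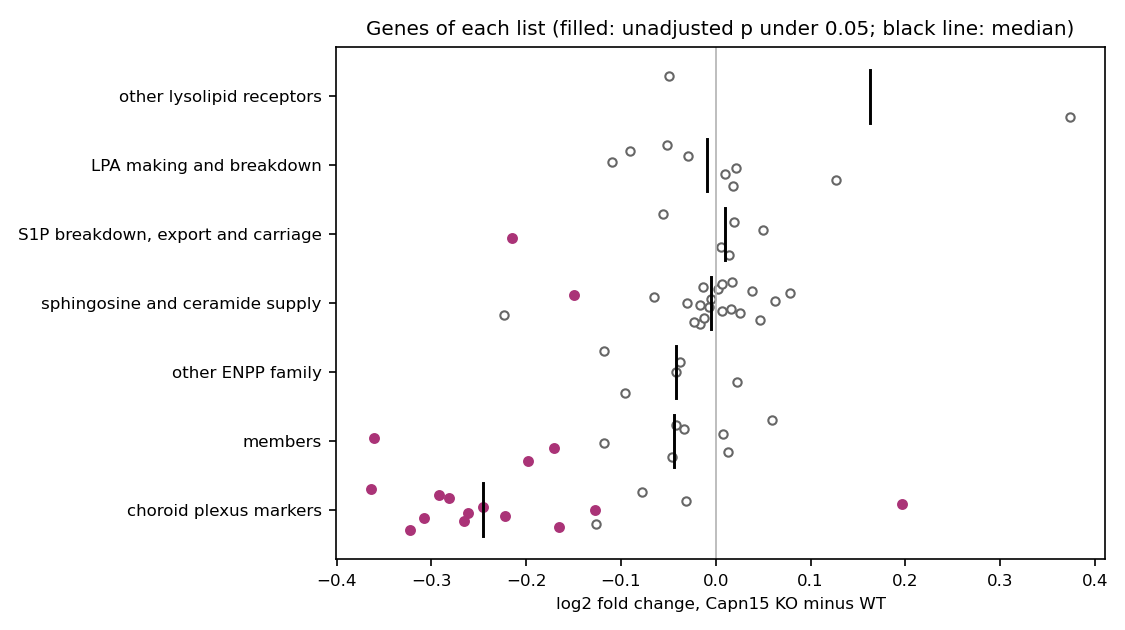
Log2 fold change, Capn15 KO minus WT, of each gene of 5 pathway groups, of the 10 genes described here and of the choroid plexus markers; filled points have an unadjusted p under 0.05 and black lines are medians. The pathway groups hold 2 filled points (Sgpp2 and Asah2), the 10 genes hold 3, and the choroid plexus markers hold 12, of which 11 are lower.

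The genes whose level followed Enpp2 and Sphk1 most closely were looked for across the 14 libraries, with the mean of each genotype subtracted from log2 CPM. These correlations are the highest among 15227 genes, rest on libraries that share litters, and are given as a description. For Enpp2 they were St3gal6 (Pearson correlation 0.94, Spearman correlation 0.90), Klhdc7a (0.89 and 0.76), Nipa2 (0.88 and 0.89), Nat8f1 (0.88 and 0.92) and Itm2b (0.88 and 0.82). St3gal6, the closest, differed by -0.04 between the genotypes on the log2 scale, and Klhdc7a by -0.26. For Sphk1 the closest gene was Ptgds (0.95 and 0.91), which encodes prostaglandin D2 synthase and is the 1 gene that passed an FDR of 0.05, with a log2 fold change of -0.38. After it came 6430571L13Rik (0.83 and 0.84), Cfap97 (0.83 and 0.83), Gjb6 (0.82 and 0.81) and Dpm3 (0.80 and 0.79).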

How the data were processed

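RNA was depleted of ribosomal RNA, and the authors trimmed the reads with Trimmomatic, aligned them to GRCm38 with STAR and counted them per gene. The study's methods name HTSeq-count and the submitters' processing notes name featureCounts, the methods name a ScriptSeq kit and the labels a stranded TruSeq kit, and the annotation release, strand setting and filter are not given in the sources used here. The deposited values are raw counts for 17927 genes, of which 17909 were found in GENCODE M21. The labels give the genotype, and the column names give litter and sex. They give WT and Capn15 KO libraries of the same number a shared litter, which is the source of the pairing. After the genotype means were subtracted, same-numbered libraries correlated between -0.47 and 0.44 over 15227 genes.

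The 10 genes and all lists were chosen with earlier results of these data known. Named genes are the 10, Capn15, pathway genes with an unadjusted p under 0.05 (up to 4 per group), the 3 most abundant markers of each list used, and the 5 genes most correlated with Enpp2 and with Sphk1 at a mean CPM of at least 1. Other genes are named only as those behind a small count, after their values were seen. Counts were tested with edgeR 4.0.16 in R 4.3.3 (TMM factors, quasi-likelihood test, litter and sex as covariates, every gene with at least 1 count), with Benjamini-Hochberg adjustment. Standard errors of log2 fold changes were worked back from the quasi-likelihood test, as the size of the change over the square root of its F statistic. The 95% intervals were built from these standard errors. Log2 CPM used a prior count of 2. Exact permutation tests were two-sided, over 3432 regroupings (smallest p 0.000583), and exact sign-flip tests over 128 sign patterns. The sign-flip tests took pairs 2 and 3, both of litter B, as separate pairs. These tests and the pair differences were not adjusted for sex, and the exact permutation tests used no covariates. DESeq2 1.42.0 and Python 3.11.15 with scipy 1.17.1 were also used. Counts were simulated for KO minus WT over 17927 genes, without differences between litters or sexes and without a pair of doubtful labels. In them the quasi-likelihood test recovered 94 of 100 genes changed by 0.5 and 100 of 100 changed by 1 on the log2 scale. There were 9 false calls. Both changes are larger than the modelled log2 fold change of any of the 10 genes, so smaller differences were not covered. All libraries were kept as separate samples (chi-square of at least 5.62 per gene between libraries of a genotype). A count of 3 in the smallest library corresponds to 0.0797 CPM, and Wilson intervals are at 95%. Both cover counting error only. Alternatives changed the test, normalization, filter or covariates, added a replicate block, or left libraries out. The values of 1 group of pathway genes, which stay in the counts over all pathway genes, are not reported here.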

Additional observations from a re-analysis of the deposited data

Results flagged for a closer look

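Among 22 groups of 7 libraries, 3 had a library far from the others, where chance gives about 1 in 20 groups (1.1 here). Lpar6 in WT replicate 2 was at 2.18 on the log2 CPM scale (4.49 CPM, Wilson interval 3.88 to 5.20), the next WT library was at 2.55, and this gap was 0.62 of the range of the WT group. Capn15 in the library labelled WT replicate 7 was at 4.23 on the log2 CPM scale against 4.64 for the next, a gap of 0.761 of the WT range. Capn15 in the library labelled Capn15 KO replicate 7 was at 4.34 against 3.87 for the next, a gap of 0.647 of the Capn15 KO range. The genotype difference of Capn15 also depended on sex in the model, by 2.16 on the log2 scale (FDR = 0.0475 in edgeR's quasi-likelihood test), and this term cannot be estimated without litter F, which holds the last pair of libraries named. None of the 10 genes had such a term with an unadjusted p under 0.05.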

How the results depend on the processing

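The count of all genes with an FDR under 0.05, 1 in the quasi-likelihood test, was 34 in the likelihood ratio test, 17 in DESeq2, 0 with library totals, 0 with the replicate block and 7 without litter F, and 0 to 7 with single libraries left out. Of the 10 genes, 2 had an FDR under 0.05 in the likelihood ratio test and 1 in DESeq2, and 0 with any single library left out. The replicate block, which pairs libraries by number, gave an FDR of 0.232 for Enpp2 and 0.371 for Sphk1, and 3 of the 10 with an unadjusted p under 0.05 against 1.99% of all genes. In the exact tests the pairing changed the call of Lpar4 (exact sign-flip p = 0.125) and no other call among the 10 genes. Over 6 pairs without litter F, a setting added after the data were seen, the exact sign-flip p was 0.0313 for Enpp2, 0.0625 for Sphk1 and 0.25 for Lpar4. With single libraries left out, 2 to 4 of the 10 genes and 1 to 4 of the 55 pathway genes had an unadjusted p under 0.05 for genotype. With all libraries kept, 5.14% of all genes did. Choroid plexus markers lower at that p were 6 to 11 of 15, against 2.26% of all genes. For sex 0 to 2 of the 10 passed, against 5.04%. For litter 4 to 6 passed, a share near the 41% of all genes. These shares over all genes are also with all libraries kept. Without litter F, 2 of the 10 were lower with an unadjusted p under 0.05 (1.92% of all genes). Pathway genes with an unadjusted p under 0.05 were 0 in DESeq2 and 0 with genotype alone, where 5 choroid plexus markers were lower at that p. The cause of these changes was not tested. Without litter F, Lpar2 was at -0.019 and Sphk2 at -0.0034 in the fit, and Lpar2 at -0.0029 in the difference of mean log2 CPM. With single libraries left out, Lpar2 lay from -0.022 to 0.054 and Sphk2 from -0.067 to 0.092 in the fit. The difference of mean log2 CPM then lay from -0.037 to 0.083 for Lpar2, from -0.027 to 0.018 for Sphk2, from -0.072 to 0.018 for S1pr1 and from -0.052 to 0.0031 for S1pr2. That of Lpar4 lay from -0.17 to -0.10, with an exact permutation p of 0.0052 to 0.0932. The log2 fold changes of Enpp2 and Sphk1 kept their sign in every alternative, from -0.23 to -0.18 and from -0.42 to -0.31 with single libraries left out. At this depth the counting error of a gene near 5 CPM in a single library is not small beside the differences given here. For example, Sphk1 in WT replicate 1 was at 4.87 CPM, with a Wilson interval of 4.26 to 5.58. Its group means, each over 7 libraries, were 6.20 CPM in WT and 4.96 CPM in Capn15 KO. Counting error is smaller for such means than for a single library.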

Other observations

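Of 10 microglial markers, 3 were higher in Capn15 KO brains at an unadjusted p under 0.05 in edgeR's quasi-likelihood test, against 2.88% of all genes. Of the 10, 0 were lower and 0 had an FDR under 0.05. The sum of the 10 lay between 160.0 and 199 CPM in WT and between 179 and 219 CPM in Capn15 KO libraries. Of 10 neuronal markers 1 was higher, and 0 of 10 markers of radial glia and astrocytes and 0 of 7 of red blood cells passed in either direction. Without litter F 4 microglial and 0 neuronal markers were higher, as were 327 of all 17927 genes. In that setting 1 red blood cell marker was lower, against 1.92% of all genes. The part of these cells in the levels of the LPA and S1P genes was not tested.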
